A study of Homo sapiens with 6 samples.

Results

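The proteasome subunit genes are the 48 genes whose symbol, in all 6 expression files, consists of PSM, a letter from A to G and a number. They were taken from 53826 entries per library, and where a symbol was repeated the entry with the highest mean was used. In this study, 2 human pancreatic ductal adenocarcinoma cell lines, PK-1 and Panc-1, were left as the control or exposed to 1 of 2 antagonists of retinoic acid receptor γ (RARγ), and total RNA was sequenced as stranded mRNA libraries. RARγi-1 is LY2955303 and RARγi-2 is MM11253, and the treatment lasted 24 h. Each of the 6 conditions (PK-1 Control, PK-1 RARγi-1, PK-1 RARγi-2, Panc-1 Control, Panc-1 RARγi-1 and Panc-1 RARγi-2) is 1 library, so no difference can be checked against replicates and no test was run. Neither the doses used for RNA sequencing nor the vehicle of its controls are stated, and both RARγi-2 libraries also carry a treatment label that reads RARγi-1. They were assigned by their titles. In such bulk samples, fewer cells of a type and less RNA per cell cannot be told apart.

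The proteasome degrades proteins that carry ubiquitin chains. Its barrel, the 20S core, stacks rings of α subunits, which form the gate, on rings of β subunits, of which PSMB5, PSMB6 and PSMB7 cut the substrate. The 19S regulatory particle caps the barrel, with ATPases (PSMC genes) that unfold the substrate and non-ATPase subunits (PSMD genes) that bind and remove ubiquitin. Under interferon, PSMB8, PSMB9 and PSMB10 replace the cutting subunits in the immunoproteasome, which supplies peptides for MHC class I. The activators PA28 (PSME1, PSME2 and PSME3) and PA200 (PSME4) open the core without ubiquitin, PSMF1 is an inhibitor of the core, and chaperones (PSMG genes for the core, PSMD5, PSMD9 and PSMD10 for the base of the 19S particle) assemble the complex. The acinar and ductal cells of the pancreas belong to a secretory epithelium, and the proteasome is the target of drugs used against multiple myeloma.

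Levels are given in TPM, the share of a gene among all transcripts after correction for transcript length, so that genes can be compared within a library. The authors raised every value under 1 TPM to 1 TPM. Fold changes compare each treated library with the control of its line, on the log2 scale after 1 was added to every TPM value. Unless stated otherwise, 3 levels of a line are those of the control, RARγi-1 and RARγi-2, and 4 log2 fold changes are those of PK-1 RARγi-1, PK-1 RARγi-2, Panc-1 RARγi-1 and Panc-1 RARγi-2. Of the 48 genes, 46 reached 5 TPM in at least 1 library. The other 2, PSMA8 of the testis and PSMB11 of the thymus, stood at the floor in all 6 libraries. The depth of the libraries is unknown, because TPM values do not keep it. As a yardstick in place of replicates, the difference of both treated libraries of a line from each other had a robust spread of 0.38 for PK-1 and 0.29 for Panc-1 on the log2 scale, over entries of at least 50 TPM in the control. It includes real differences between the inhibitors and misses variation of the control library, which both comparisons of a line share.

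The label of the cells was read against marker genes. All 6 epithelial markers were above the floor in PK-1, whereas CDH1, the epithelial cadherin, did not leave the floor in any of the 3 Panc-1 libraries. The summed TPM of the 6 markers was 22498, 13507 and 14127 in PK-1 Control, RARγi-1 and RARγi-2, and 8418, 1783 and 1484 in the same order in Panc-1, so that the sum was lower in every treated library. It consists mostly of the 4 keratins. CDH1 went the other way in PK-1, with 170, 270 and 385 TPM, and EPCAM had 578, 552 and 497 TPM in PK-1 and 13.4, 19.4 and 9.18 TPM in Panc-1. The part of these differences in the values below was not tested. None of 5 fibroblast and none of 3 endothelial markers left the floor. Among leukocyte markers, PTPRC and CD3E were at the floor everywhere, and CD68, a lysosomal protein, lay between 19.8 and 276 TPM.

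Most proteasome subunit genes stayed close to their controls, and none was more than 2-fold higher in any comparison, with PSMD7 in PK-1 RARγi-2 at the limit itself. Of the 46 genes, 32 lay within 1.5-fold of the control in all 4 comparisons. The share of all entries that did so in all 4 was not computed. In PK-1 RARγi-1, 1 gene was more than 1.5-fold higher and 2 were lower, where 23.0% and 12.3% of all 12412 entries of at least 5 TPM in any library were past these limits. In PK-1 RARγi-2 the numbers were 2 higher and 9 lower, against 23.7% and 24.0% of all entries. In Panc-1 RARγi-1, 1 gene was higher and 2 were lower, against 19.4% and 14.3%. In Panc-1 RARγi-2, 1 was higher and 5 were lower, against 18.9% and 22.0%. As shares of the 46 genes, the lower counts were 4.35%, 19.6%, 4.35% and 10.9%, each under the share of all entries. The spread among the subunits was narrower as well, with an interquartile range of 0.47, 0.55, 0.36 and 0.41 in the order PK-1 RARγi-1, PK-1 RARγi-2, Panc-1 RARγi-1 and Panc-1 RARγi-2, beside 0.78, 1.10, 0.75 and 0.92 over all entries.

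Past 2-fold there were 0 genes higher in each comparison, where 9.91%, 12.9%, 7.86% and 9.02% of all entries were, in that order. Lower past 2-fold were 0, 2, 0 and 1 genes, where 5.20%, 13.5%, 6.51% and 12.0% of all entries were. PSMB9 was that gene in Panc-1 RARγi-2, and PSMB8 and PSMB9 were the pair in PK-1 RARγi-2. Without a pseudocount, PSMD7 in PK-1 RARγi-2 also came out past 2-fold.

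The median log2 fold change of the 46 genes was -0.04, -0.08, -0.13 and -0.09 in the order above, beside 0.13, 0.00, 0.05 and 0.00 over all entries. Among entries of at least 50 TPM in the control, which are as abundant as most subunits, it was -0.09, -0.23, -0.10 and -0.19. Thus the subunits lay below the whole table in each comparison and above the abundant entries in 3 of 4. Selection on the control level can by itself lower the latter medians, and how far it did so here was not tested. By sign alone, 21, 18, 15 and 19 of the 46 genes were higher than the control (45.7%, 39.1%, 32.6% and 41.3%), where 57.8%, 48.6%, 53.2% and 46.0% of all entries were. Among the entries of at least 50 TPM in the control, 1382 of 3184, 1205 of 3184, 1379 of 3291 and 1259 of 3291 were higher. Scaling the libraries by median ratios moved PK-1 RARγi-1 by -0.13 and Panc-1 RARγi-1 by -0.10 on the log2 scale. The number of higher genes was then 14, 20, 10 and 19, beside 50.3%, 53.7%, 47.5% and 51.1% of all entries. In total the 46 genes made up 1.31%, 1.26% and 1.23% of TPM in PK-1 Control, RARγi-1 and RARγi-2, and 1.62%, 1.48% and 1.66% in Panc-1.

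**Figure D1:**
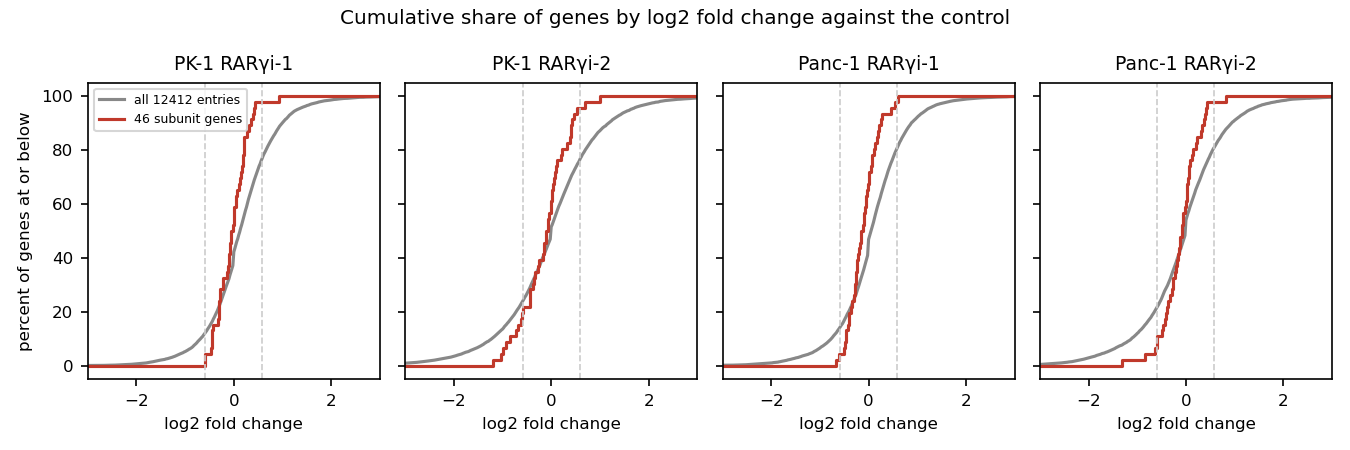
Cumulative percentage of genes (y axis) at or below each log2 fold change against the control (x axis), for the 46 subunit genes (red) and all 12412 entries (grey) in the 4 comparisons, with dashed lines at 1.5-fold. The red curve is steeper than the grey curve in each panel, with interquartile ranges of 0.36 to 0.55 against 0.75 to 1.10.

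Across the comparisons, 8 genes were higher than the control in all 4 and 15 were lower in all 4, counting any size, where 30.0% and 23.4% of all entries were higher and lower. As shares of the 46 genes these are 17.4% and 32.6%. The higher genes were PSMB7, PSMD7, PSMD8, PSMD14, PSMD9, PSMD10, PSME4 and PSMF1. After scaling by median ratios they were 7, since PSMD7 in Panc-1 RARγi-1 then had -0.04, and 16 genes were lower. By more than the spread in all 4 comparisons, 1 gene was higher (PSME4) and 2 were lower (PSMB9 and PSMD2), where 15.3% of all entries were higher and 10.5% lower. In single comparisons 23.9%, 47.8%, 32.6% and 43.5% of the 46 genes lay past the spread in either direction, beside 52.7%, 62.8%, 59.7% and 65.0% of all entries. The comparisons of a line use the same control library and are not independent.

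**Figure D2:**
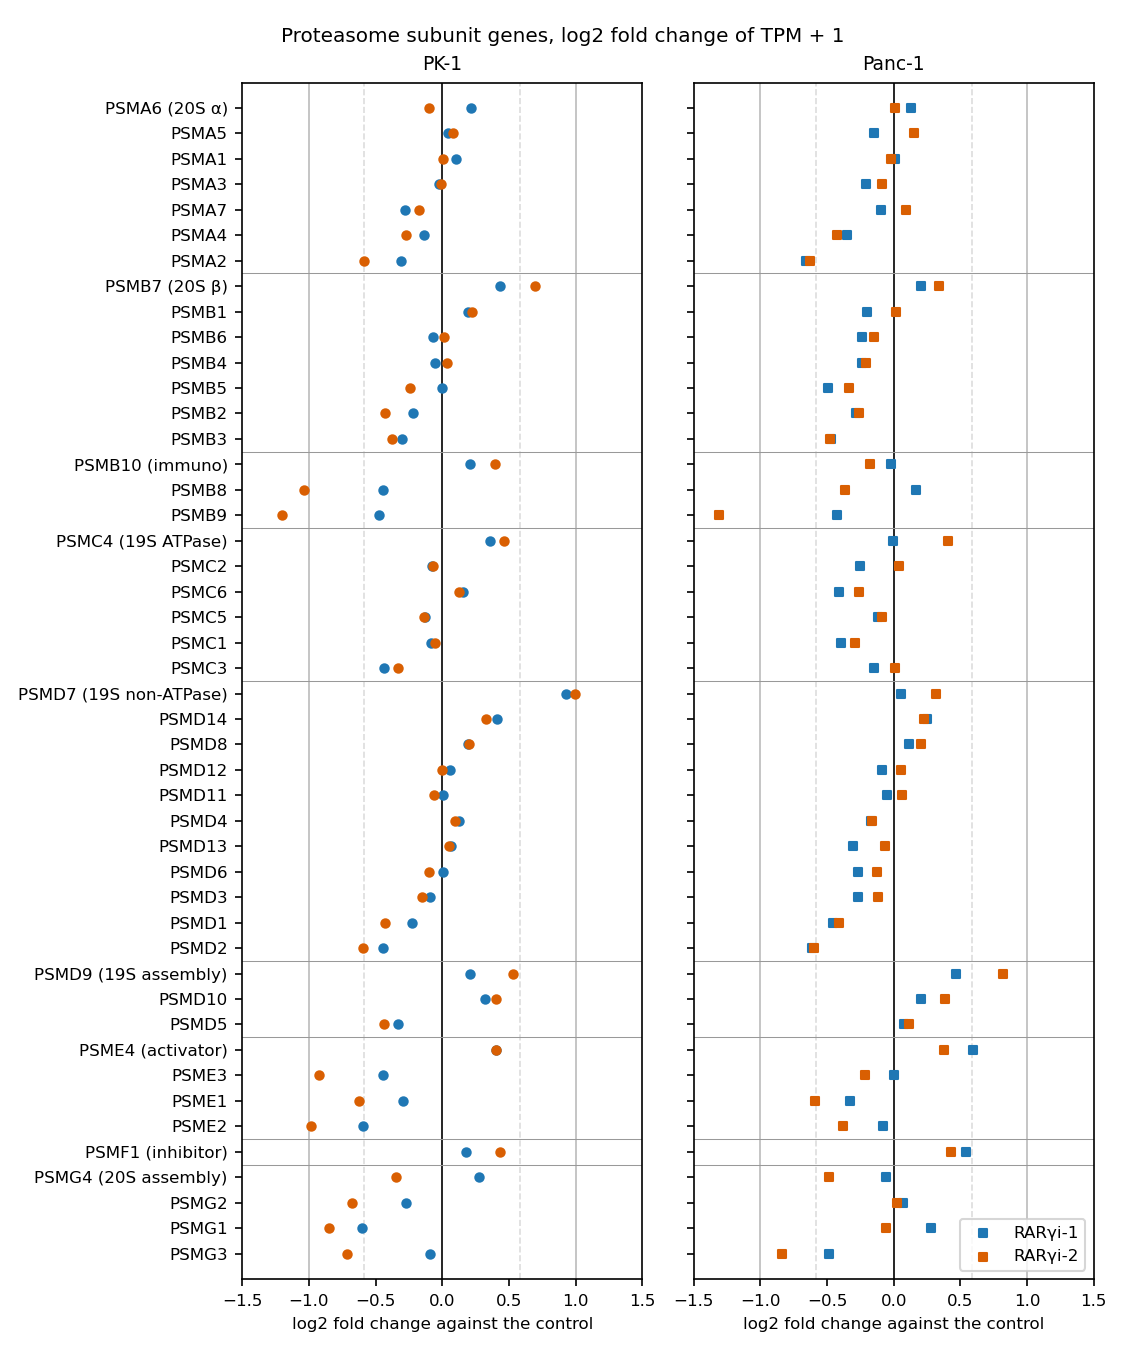
Log2 fold change of TPM + 1 against the control of the line (x axis) for the 46 subunit genes by role (y axis), in PK-1 (circles) and Panc-1 (squares), RARγi-1 in blue and RARγi-2 in orange. Dashed lines mark 1.5-fold and grey lines 2-fold. PSMB8 and PSMB9 in PK-1 RARγi-2 and PSMB9 in Panc-1 RARγi-2 are the points left of the 2-fold line.

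The α ring of the 20S core was little altered. The 7 expressed α genes ranged in PK-1 Control from 110 TPM for PSMA5 to 1343 TPM for PSMA7, and these 2 genes were also the lowest and the highest in the other libraries. Their median log2 fold change was -0.02, -0.10, -0.15 and -0.02. The exception was PSMA2, with 292 TPM in PK-1 Control, 235 in PK-1 RARγi-1, 194 in PK-1 RARγi-2, 432 in Panc-1 Control, 273 in Panc-1 RARγi-1 and 280 in Panc-1 RARγi-2. Every treated library was below its control, by -0.31, -0.58, -0.66 and -0.63 on the log2 scale. PSMA4 followed it with -0.13, -0.27, -0.35 and -0.43. PSMA7 had -0.28, -0.18, -0.09 and 0.09. At the other end stood PSMA6, with 0.22, -0.10, 0.13 and 0.01. PSMA5 had 0.04, 0.08, -0.15 and 0.15, with -0.09 in PK-1 RARγi-1 under median-ratio scaling. For PSMA1 the values were 0.10, 0.01, 0.01 and -0.02, and under median-ratio scaling both RARγi-1 values turned negative (-0.03 and -0.09).

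In the constitutive β ring, the cutting subunits differed from one another. PSMB7, which holds the trypsin-like site, had 637, 858 and 1031 TPM in PK-1 Control, RARγi-1 and RARγi-2, and 518, 597 and 655 TPM in Panc-1. All 4 treated libraries were above their control, with log2 fold changes of 0.43, 0.69, 0.21 and 0.34. PSMB5, the chymotrypsin-like subunit and the site bound by bortezomib, had 270, 270 and 228 TPM in PK-1, against 245, 173 and 194 TPM in Panc-1. It was level with its control in PK-1 RARγi-1 and lower in the other treated libraries (-0.24, -0.50 and -0.34). PSMB6, the caspase-like subunit, stayed within the spread in every comparison (-0.07, 0.02, -0.24 and -0.15). Of the subunits without a cutting site, PSMB3 was lower in all 4 (-0.30, -0.38, -0.47 and -0.48), and so was PSMB2 (-0.22, -0.43, -0.28 and -0.26), while PSMB1 had 0.19, 0.22, -0.20 and 0.02. The summed level of the 7 constitutive β genes was 3350, 3386 and 3529 TPM in PK-1, against 3706, 3240 and 3494 TPM in Panc-1.

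The immunoproteasome subunits differed from one another in direction. PSMB9 (Entrez gene 5698), which takes the place of PSMB6, had 77 TPM in PK-1 Control, 55.2 in PK-1 RARγi-1 and 32.8 in PK-1 RARγi-2. In Panc-1 the levels were 43.1, 31.9 and 16.7 TPM in the same order. The control was highest and RARγi-2 lowest in both lines, with log2 fold changes of -0.47, -1.21, -0.42 and -1.31. PSMB8 (Entrez gene 5696), the counterpart of PSMB5, had 59.1, 43.1 and 28.2 TPM in PK-1. In Panc-1 it had 41.9, 47.1 and 32.2 TPM. Against the control it was at -0.45 and -1.04 on the log2 scale in PK-1. In Panc-1 it was at 0.17 and -0.37, with the RARγi-1 library above the control. PSMB10 (Entrez gene 5699), the counterpart of PSMB7, had 65.2, 75.5 and 85.9 TPM in PK-1, against 46.4, 45.6 and 40.8 TPM in Panc-1. It was thus the 1 immunoproteasome gene above its control in PK-1, within the spread with RARγi-1 (0.21) and just past it with RARγi-2 (0.39). Its Panc-1 levels lay within the spread (-0.02 and -0.18).

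Set against the constitutive subunit that each replaces, all 3 pairs had a lower ratio in RARγi-2 than in the control of both lines. The ratio of PSMB9 to PSMB6 was 0.145, 0.109 and 0.0612 in PK-1, against 0.0677, 0.0589 and 0.0291 in Panc-1. That of PSMB8 to PSMB5 was 0.219, 0.160 and 0.124 in PK-1. In Panc-1 it was 0.171, 0.272 and 0.166, so that RARγi-1 stood above its control and RARγi-2 differed little from it. For PSMB10 and PSMB7 the ratio was 0.102, 0.0879 and 0.0833 in PK-1, against 0.0896, 0.0764 and 0.0623 in Panc-1. PSMB10 itself was higher in the treated PK-1 libraries, and its ratio was lower because PSMB7 was higher still. As a whole, the 3 immunoproteasome genes carried 14.0%, 10.6% and 8.18% of the TPM of the 3 constitutive cutting subunits in PK-1, against 9.39%, 9.50% and 6.31% in Panc-1. The constitutive transcripts were the more abundant form in all 6 libraries.

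**Figure D3:**
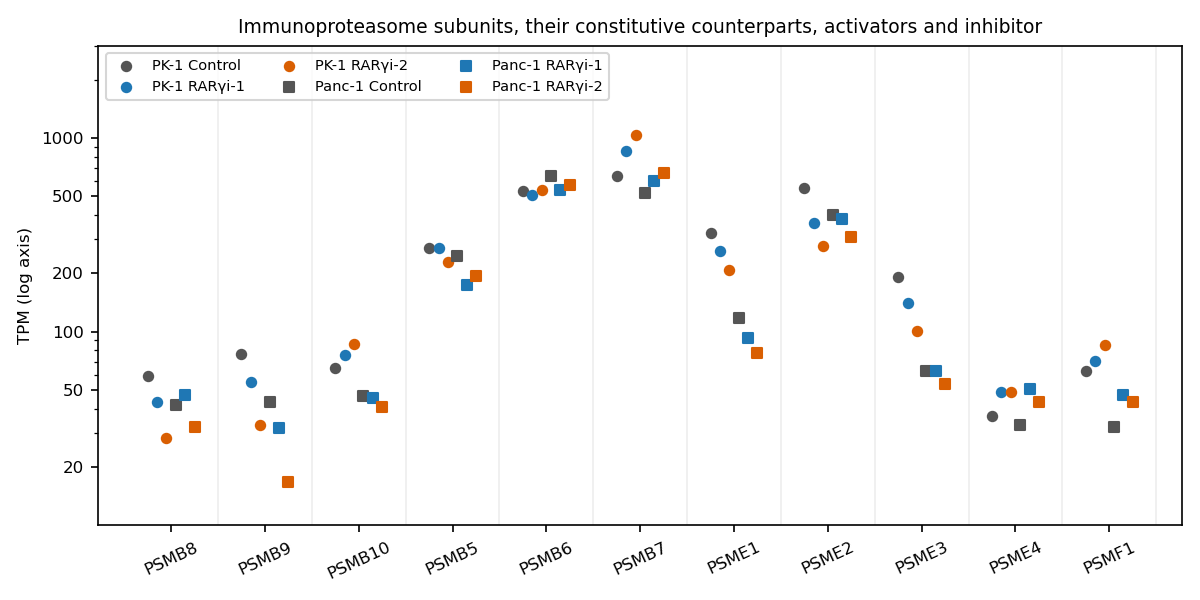
TPM (log y axis) of the immunoproteasome subunits, their constitutive counterparts, the activators and the inhibitor in each library, circles for PK-1 and squares for Panc-1, grey for the control, blue for RARγi-1 and orange for RARγi-2. PSMB9 steps from 77 to 32.8 TPM among the circles and from 43.1 to 16.7 TPM among the squares, while PSMB7 and PSMF1 lie above their control in all treated libraries.

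The 150 bases before the RefSeq start are shown for PSMB8, PSMB9, PSME1 and PSME2, interferon-responsive genes with negative mean log2 fold changes. They were not the lowest genes as a set. PSMD2, PSMA2 and PSMG3, which are not shown, had means of -0.56, -0.55 and -0.53, below PSME2, PSME1 and PSMB8 (-0.51, -0.46 and -0.42). Also shown are PSMB10, which went the other way in PK-1, and PSMD9, which was higher in all treated libraries. Sequences are from RefSeq on GRCh38.p14, on the strand of the gene, 5′ to 3′. Capitals mark matches on either strand to TGACNNNGC, the core of the antioxidant response element bound by the factors encoded by NFE2L1 and NFE2L2, and to GAAANNGAA, a core of the interferon-stimulated response element.
PSMB8 (chr6:32844680-32844829, minus strand): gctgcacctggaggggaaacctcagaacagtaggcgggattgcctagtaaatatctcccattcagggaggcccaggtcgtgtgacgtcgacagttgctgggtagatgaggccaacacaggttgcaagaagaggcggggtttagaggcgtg
PSMB9 (chr6:32854042-32854191, plus strand): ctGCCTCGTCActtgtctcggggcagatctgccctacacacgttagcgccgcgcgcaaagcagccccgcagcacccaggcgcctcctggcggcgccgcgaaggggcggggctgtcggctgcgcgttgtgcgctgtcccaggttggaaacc
PSMB10 (chr16:67936851-67937000, minus strand): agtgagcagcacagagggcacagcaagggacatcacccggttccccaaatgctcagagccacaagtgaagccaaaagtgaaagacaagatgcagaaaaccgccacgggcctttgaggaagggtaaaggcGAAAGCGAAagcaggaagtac
PSME1 (chr14:24136044-24136193, plus strand): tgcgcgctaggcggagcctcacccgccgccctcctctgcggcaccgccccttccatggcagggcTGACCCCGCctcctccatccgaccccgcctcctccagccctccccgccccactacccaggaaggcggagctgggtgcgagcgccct
PSME2 (chr14:24146611-24146760, minus strand): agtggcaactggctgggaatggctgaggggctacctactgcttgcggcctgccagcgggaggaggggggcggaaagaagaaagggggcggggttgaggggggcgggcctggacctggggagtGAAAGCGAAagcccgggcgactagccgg
PSMD9 (chr12:121888640-121888789, plus strand): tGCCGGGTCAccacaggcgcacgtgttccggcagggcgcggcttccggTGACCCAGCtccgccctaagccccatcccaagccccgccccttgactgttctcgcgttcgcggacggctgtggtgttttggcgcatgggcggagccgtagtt

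PSMB10 and PSME2 hold the same interferon letters, GAAAGCGAA, which begin 21 and 28 bases before the start. In PK-1, PSMB10 had 0.21 and 0.39, and PSME2 had -0.60 and -0.98. In Panc-1 both were below the control by sign, PSMB10 with -0.02 and -0.18 and PSME2 with -0.08 and -0.38. A link between the letters and these values was not tested. PSMD9 holds 2 antioxidant matches, and PSME1 and PSMB9 hold 1 each in the bases shown. PSMB8 holds neither motif there. A match is a description of letters and not a site shown to be bound.

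The same letters were searched in the 250 bases before the start of the 42 subunit genes that have a promoter in the RefSeq table. A gene counted once if any of its starts had a match. PSMA7, PSMB1, PSMB6, PSMB7, PSMD4 and PSMG3 were not searched. TGACNNNGC was present in 13 of 42 genes (31.0%), beside 13.2% of all 27305 genes. Of these 13, 2 were higher in all 4 comparisons (PSME4 and PSMD9) and 7 were lower in all 4 (PSMA4, PSMB3, PSMB9, PSMC5, PSMD3, PSME1 and PSME2). Of the 29 genes searched that lack the letters, 5 were higher in all 4 and 7 lower. The 29 include PSMA8 and PSMB11, which stood at the floor in all 6 libraries and so could be neither. GAAANNGAA was present in 5 of 42 (11.9%, beside 8.41%), namely PSMA4, PSMB4, PSMB10, PSME2 and PSMG4. CCAAT, the box bound by NF-Y, was present in 19 of 42 (45.2%, beside 37.0%). TGATGNAA, the element bound by C/EBP and ATF factors, was in 0 of 42, beside 3.89% of all genes. The lists overlap, with PSME2 and PSMA4 holding both of the first 2 motifs.

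PSMB8 and PSMB9 lie beside the peptide transporter genes TAP1 and TAP2 in the class II region of the MHC on chromosome 6, in the order TAP2, PSMB8, TAP1 and PSMB9. TAP2 was lower as well, from 26.6 TPM in PK-1 Control to 12.8 and 10.4 TPM, and from 46.8 TPM in Panc-1 Control to 30.5 and 22.4 TPM (-1.0, -1.28, -0.60 and -1.03). TAP1, whose start lies next to that of PSMB9, had 0.18, -0.41, -0.02 and -0.13. Of the other genes of the class I route, B2M, the light chain, was lower by sign in all 4 (-0.06, -0.78, -0.60 and -0.83), and HLA-B (0.47, 0.18, 1.30 and 1.07) and HLA-C (0.48, 0.64, 1.13 and 1.14) were higher in all 4. Antigen processing and interferon genes as a list of 18 had no common direction. Of the 17 that reached 5 TPM, 5, 4, 3 and 3 were more than 1.5-fold higher and 1, 6, 4 and 5 lower, beside the shares of all entries given above. IRF1, an activator of PSMB9 and TAP1, had 0.14, 0.56, 0.26 and 0.48.

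Among the activators, the PA28 genes lay below their controls in PK-1 and the PA200 gene above its controls in both lines. PSME1 (PA28α) had 322, 262 and 208 TPM in PK-1 Control, RARγi-1 and RARγi-2, and 117, 93.0 and 77.5 TPM in Panc-1. PSME2 (PA28β), its partner in the same ring, had 550, 363 and 277 TPM in PK-1, against 401, 380 and 308 TPM in Panc-1. For both genes the control was highest and RARγi-2 lowest in each line. The log2 fold changes were -0.30, -0.62, -0.33 and -0.59 for PSME1, and -0.60, -0.98, -0.08 and -0.38 for PSME2. The nuclear form PSME3 (PA28γ), which interferon does not induce, had 192, 141 and 101 TPM in PK-1, a difference of -0.45 and -0.92. In Panc-1 it had 62.4, 62.5 and 53.6 TPM and lay within the spread (0.00, or -0.10 under median-ratio scaling, and -0.22).

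PSME4, the single chain of PA200, had 36.7, 48.8 and 48.7 TPM in PK-1, against 33.1, 50.5 and 43.2 TPM in Panc-1. It was the 1 subunit gene above the spread in all 4 comparisons, by 0.40, 0.40, 0.60 and 0.37. PSMF1, the inhibitor PI31, which binds the core ends that activators use, had 62.6, 70.8 and 84.9 TPM in PK-1, against 32.0, 47.0 and 43.5 TPM in Panc-1. Each treated library was above its control (0.17, 0.43, 0.54 and 0.43). In sum the 4 activator genes had 1100, 815 and 635 TPM in PK-1, against 614, 586 and 482 TPM in Panc-1. Next to the genes of PA28α and PA28β on chromosome 14, EMC9, which lies between them, had -0.41, -0.32, 0.16 and 0.22, and RNF31, next to PSME2, had 0.21, -0.02, 0.39 and 0.18.

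The ATPases of the 19S base stayed within 1.5-fold of the control in each comparison. Their median log2 fold change was -0.08, -0.06, -0.20 and -0.04. PSMC4 had the highest values, with 0.35, 0.47, -0.01 and 0.40, and PSMC3 was lowest in PK-1 (-0.43 and -0.33), with -0.15 and 0.01 in Panc-1. PSMC2 had -0.08, -0.07, -0.25 and 0.04, and PSMC5 was lower by sign in all 4 (-0.13, -0.14, -0.12 and -0.09). PSMC1 had -0.09, -0.05, -0.40 and -0.29, and PSMC6 had 0.15, 0.13, -0.41 and -0.26.

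The level of PSMC4 itself set the lines apart. It had 202, 259 and 280 TPM in PK-1 Control, RARγi-1 and RARγi-2, but 3841, 3818 and 5085 TPM in Panc-1. The Panc-1 control was 19-fold above the PK-1 control. Counting PSMC4 itself, 96 of the 12412 entries had a ratio at least this high. In Panc-1 Control this 1 gene was higher than every other subunit, of which PSMB4 came next with 938 TPM. On chromosome 19, the 12 expressed protein-coding genes nearest to PSMC4, 6 on each side, had a median log2 difference of 3.58. Of these, 11 were also more than 2-fold higher in the Panc-1 control, beside 17.3% of all entries. They include FBL, a nucleolar methyltransferase, with 559 TPM in PK-1 Control and 7840 TPM in Panc-1 Control, and AKT2, a kinase of insulin signalling, with 56.0 and 944 TPM. The exception was FCGBP, with 1.77 TPM in Panc-1 and at the floor in PK-1. The neighbours were looked up after the value of PSMC4 had been seen. Without PSMC4 the subunit genes summed to 12830, 12277 and 12009 TPM in PK-1, against 12331, 10991 and 11505 TPM in Panc-1, which places the control of Panc-1 below that of PK-1. With PSMC4 the sums of the controls were 13033 TPM for PK-1 and 16172 TPM for Panc-1.

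Between the control libraries, 5 of the 46 genes were more than 2-fold higher in Panc-1 and 7 were lower, beside 17.3% and 16.1% of all entries. The higher genes were PSMC4, PSMD13, PSMB1, PSMG4 and PSMB4, and the lower ones PSME3, PSMG2, PSME1, PSMB3, PSMD12, PSMD3 and PSMD5. Besides PSMC4, the most distant were PSMD13, a lid subunit of the 19S particle, 3.81-fold higher in Panc-1, and PSME3, 3.08-fold higher in PK-1. PSMG2 was 2.94-fold, PSME1 2.74-fold and PSMB3 2.62-fold higher in PK-1. The median log2 difference between the lines was -0.27 over the 46 genes, beside 0.02 over all entries.

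**Figure D4:**
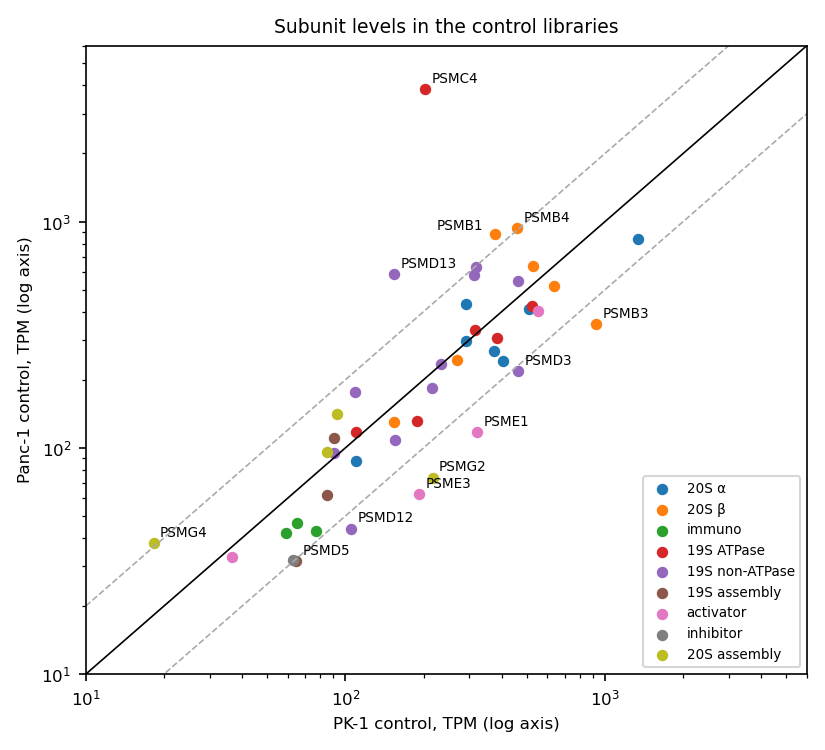
TPM in Panc-1 Control (log y axis) against TPM in PK-1 Control (log x axis) for the 46 subunit genes, coloured by role, with the line of equal levels and dashed lines at 2-fold. PSMC4 stands alone at 202 TPM on the x axis and 3841 TPM on the y axis, and the 12 named genes are those past 2-fold.

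The non-ATPase subunits of the 19S particle held some of the lowest values of the complex and, in PK-1, the highest. In Panc-1 the highest values were those of PSME4 with RARγi-1 (0.60) and of PSMD9 with RARγi-2 (0.82). PSMD7 (RPN8), the inactive partner of the deubiquitinase in the lid, had 216, 411 and 433 TPM in PK-1, against 183, 191 and 229 TPM in Panc-1. Both treated PK-1 libraries were close to 2-fold above their control (0.92 and 1.0), and the Panc-1 values were 0.05 and 0.32. PSMD14 (RPN11), the deubiquitinase that pairs with PSMD7, had 0.41, 0.33, 0.25 and 0.23, and thus did not follow PSMD7 in size in PK-1. PSMD8, a further lid subunit, had 0.20, 0.20, 0.11 and 0.20.

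At the lower end were the scaffold subunits of the base. PSMD2 (RPN1), the docking platform for shuttle receptors, had 464, 340 and 306 TPM in PK-1, against 548, 358 and 361 TPM in Panc-1. It was below the control by more than the spread in all 4 comparisons (-0.45, -0.60, -0.61 and -0.60), with both inhibitors close to each other in Panc-1. PSMD1 (RPN2), the other large scaffold, had 108, 92.4 and 80.4 TPM in PK-1, against 176, 128 and 132 TPM in Panc-1 (-0.23, -0.43, -0.46 and -0.41). PSMD3, which is not one of these scaffolds, lay within the spread in each comparison, with -0.09, -0.15, -0.27 and -0.12. For the 31 constitutive subunits of core and 19S particle together, the median was 0.00, -0.05, -0.21 and -0.09. Of the 31, 15, 13, 6 and 13 were higher than the control, beside 57.8%, 48.6%, 53.2% and 46.0% of all entries.

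The 3 assembly chaperones of the 19S base had a median log2 fold change of 0.21, 0.40, 0.20 and 0.39, and the 4 of the 20S core had -0.18, -0.69, 0.01 and -0.27. For the 19S base, PSMD9 had 84.6, 97.7 and 122 TPM in PK-1, against 62.2, 86.1 and 110 TPM in Panc-1, with the control lowest and RARγi-2 highest in both lines (0.21, 0.53, 0.46 and 0.82). PSMD10 (gankyrin), an oncoprotein that also binds the RB protein, had 0.32, 0.40, 0.20 and 0.39. PSMD5 had 64.8, 51.3 and 47.5 TPM in PK-1, against 31.5, 33.3 and 34.2 TPM in Panc-1 (-0.33, -0.44, 0.08 and 0.12), and the value of Panc-1 RARγi-1 turned to -0.02 under median-ratio scaling. Its antisense gene PSMD5-AS1 had 9.10, 20.8 and 36.7 TPM in PK-1, against 4.64, 11.2 and 12.6 TPM in Panc-1. Whether the counting used strand is not stated, so that reads of this pair may not be told apart.

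For the 20S core, PSMG1 and PSMG2, which form 1 dimer that gathers the α ring, were lower in PK-1. PSMG1 had 84.9, 55.7 and 46.6 TPM in PK-1 (-0.60 and -0.85), and 95.8, 117 and 92.2 TPM in Panc-1 (0.28 and -0.05). PSMG2 had 217, 179 and 136 TPM in PK-1 (-0.28 and -0.67), and 73.9, 77.6 and 75.4 TPM in Panc-1 (0.07 and 0.03). The members of this dimer were thus below the control in both treated PK-1 libraries and, with 0.28 as the highest value, within the spread in Panc-1. PSMG3, of the second dimer, was lower in all 4, with 93.1, 87.2 and 56.4 TPM in PK-1, against 141, 100 and 78.2 TPM in Panc-1 (-0.09, -0.71, -0.49 and -0.84). Its partner PSMG4, the least expressed of the 46 genes by its geometric mean, had 0.27, -0.35, -0.06 and -0.48. All 4 genes were below the control in PK-1 RARγi-2, with a median of -0.69, and the sum of the 4 was 413, 344 and 253 TPM in PK-1, against 349, 331 and 273 TPM in Panc-1. POMP, the chaperone that matures the β ring and no PSM gene by name, had 0.11, 0.04, -0.32 and -0.16.

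Beyond the subunits, 38 genes of the ubiquitin-proteasome pathway were followed as a list, and more than 1.5-fold higher were 7, 10, 6 and 8 of them, and lower 1, 5, 0 and 0. As shares, 18.4%, 26.3%, 15.8% and 21.1% were higher, which is near the shares of all entries given above. Lower were 2.63%, 13.2%, 0% and 0%, each under the share of all entries. In 4 genes, or 10.5% beside 8.18% of all entries, the level was more than 1.5-fold higher in all 4 comparisons, namely ZFAND2A, SYVN1, NFE2L1 and AKIRIN2. ZFAND2A (AIRAP), a proteasome-associated protein induced by arsenite and heat shock, had 46.0, 157 and 311 TPM in PK-1, against 37.0, 229 and 427 TPM in Panc-1 (1.75, 2.73, 2.60 and 3.49). SYVN1 (HRD1), the ubiquitin ligase of degradation from the endoplasmic reticulum, had 31.3, 89.7 and 154 TPM in PK-1, against 52.5, 117 and 268 TPM in Panc-1 (1.49, 2.26, 1.14 and 2.33). In both genes RARγi-2 was highest and the control lowest in each line.

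NFE2L1 encodes the transcription factor that restores proteasome gene expression when the proteasome is inhibited. Its level was 141, 418 and 398 TPM in PK-1, against 176, 297 and 271 TPM in Panc-1 (1.56, 1.49, 0.75 and 0.62). The medians of the constitutive subunits were 0.00, -0.05, -0.21 and -0.09, and a link between them and the NFE2L1 transcript was not tested. NFE2L2, which encodes NRF2, had 0.37, 0.30, 0.50 and 0.82. NGLY1, an enzyme that processes the NFE2L1 protein, had 0.49, 0.53, 0.83 and 0.22, and DDI2, the protease that cleaves it, stood at 5.67 TPM or less in every library. AKIRIN2, which brings the proteasome into the nucleus, had 0.79, 0.84, 0.84 and 0.95.

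ADRM1, a ubiquitin receptor of the 19S particle, had 0.13, 0.05, -0.08 and 0.22, and SEM1, the smallest lid subunit, had 0.09, 0.15, -0.23 and 0.04. For both, and for POMP, the PK-1 RARγi-1 value turned slightly negative under median-ratio scaling (-0.0025 for ADRM1, -0.04 for SEM1 and -0.02 for POMP). UCHL5, a deubiquitinase that binds ADRM1, had 24.0, 13.0 and 8.15 TPM in PK-1, against 18.0, 16.5 and 14.1 TPM in Panc-1 (-0.84, -1.45, -0.12 and -0.33). KIAA0368 (ECPAS), which links the 26S proteasome to other compartments, had 0.55, 0.74, 0.80 and 1.09.

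**Figure D5:**
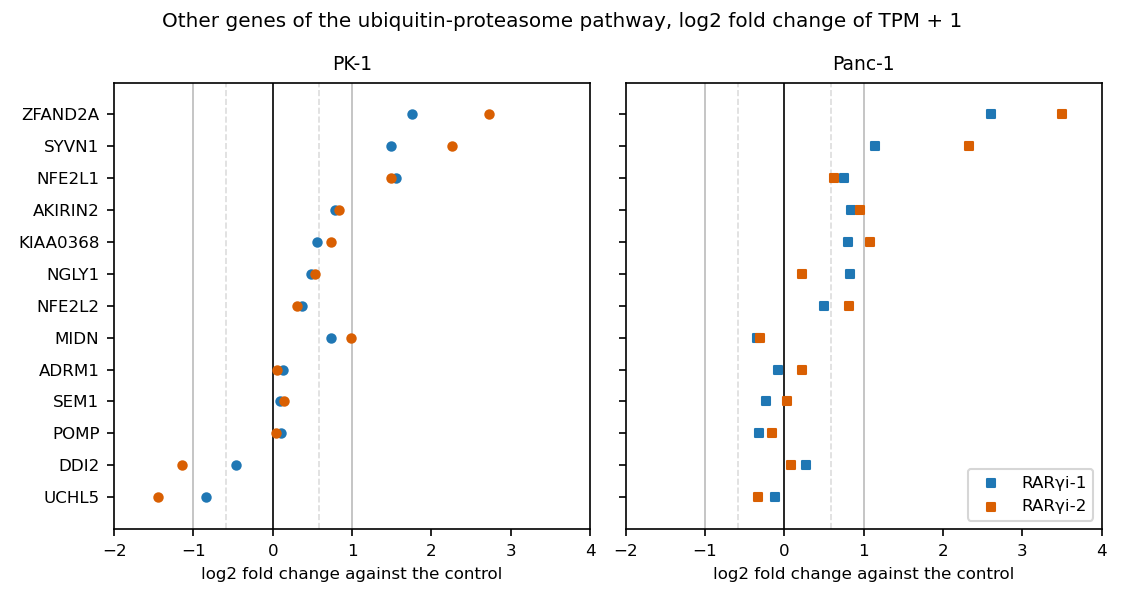
Log2 fold change of TPM + 1 against the control of the line (x axis) for the 13 other genes of the pathway that are described by name (y axis, ordered by mean), in PK-1 (circles) and Panc-1 (squares), RARγi-1 in blue and RARγi-2 in orange. ZFAND2A and SYVN1 lie right of the 2-fold line in both lines, and ADRM1, SEM1 and POMP lie between the 1.5-fold lines.

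As measures of other large complexes, the 8 genes of the chaperonin TRiC, which folds actin and tubulin, had medians of -0.49, -0.72, -0.29 and -0.34. In PK-1, 0 of 8 were higher than the control, beside 57.8% and 48.6% of all entries with RARγi-1 and RARγi-2. The 75 expressed genes of cytosolic ribosomal proteins had medians of -0.09, -0.04, -0.04 and -0.01. The proteasome medians of -0.04, -0.08, -0.13 and -0.09 were thus closer to those of the ribosome than to those of TRiC.

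Reads of near-identical copies could affect the values. The files list 43 pseudogenes of PSM genes, and all 43 stood at the floor in the 6 libraries. How reads that match both a gene and its copies were assigned is not given in the sources used here.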

How the data were processed

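RNA was sequenced from PK-1 and Panc-1 cells, 1 library for each of 6 conditions. The deposited values are log2 of TPM, which the authors had raised to 1 TPM wherever they were lower, so that the lowest log2 value is 0. This floor was read from the values. The aligner, the counting method and its use of strand are not given in the sources used here. The submitters' processing notes name hg38. Libraries were grouped by their titles.

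The deposited log2 values were converted back to TPM, and fold changes were taken as log2 ratios with a pseudocount of 1, using Python 3.11.15, numpy 2.4.6 and pandas 2.3.3. Entries of at least 5 TPM in 1 of the 6 libraries served as the background (12412 of 53826). No p-value was computed, since each condition is 1 library, and neither depth nor intervals can be had from TPM. The spread comes from the median absolute deviation, scaled to a normal SD, of one treated library of a line minus the other. Alternatives were no pseudocount or 0.1, scaling by median ratios, no minimum or 20 TPM, summed entries of a symbol and a background of 50 TPM in the control.

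The members, gene lists and motifs were chosen with earlier results of these data known. Described by name were the immunoproteasome, activator, inhibitor and past-2-fold subunits, the 3 highest and 3 lowest by mean log2 fold change in each other group, POMP, ADRM1, SEM1, NFE2L1, NFE2L2 and pathway genes past 2-fold in all 4 comparisons. Others named (PSMC4's neighbours, TAP1, TAP2, AKIRIN2, UCHL5, NGLY1, DDI2, KIAA0368, MIDN, EMC9, RNF31, the subunits past 2-fold between the control libraries, PSMD5-AS1 and the class I and interferon genes) were picked after their values were seen. All 48 Entrez gene IDs were in the RefSeq table of GRCh38.p14. The fold change code was tested on simulated data. Some genes of the lists are counted but not reported here by name.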

Additional observations from a re-analysis of the deposited data

Results flagged for a closer look

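Some genes lay above the control in both treated libraries of one line and below it in both of the other, and the difference between the lines was not tested. MIDN, which encodes midnolin, a protein that takes nuclear proteins to the proteasome without ubiquitin, was the 1 gene among the subunits and the pathway list that did so by more than the spread in every comparison, at 0.74 with RARγi-1 and 0.99 with RARγi-2 on the log2 scale in PK-1, against -0.34 and -0.31 in Panc-1.

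Smaller differences of this kind were present in 6 of the 46 subunit genes. The share of all entries with opposite directions in the lines was not computed, so this count cannot be called high or low. The log2 fold changes of PSMB10 in PK-1 were 0.21 and 0.39, against -0.023 and -0.18 for Panc-1. Those of PSMC6 were 0.15 and 0.13 against -0.41 and -0.26. PSMD13 had 0.063 and 0.053 against -0.30 and -0.069. PSMD4 had 0.12 and 0.093 against -0.17 and -0.16. PSMD5 had -0.33 and -0.44 against 0.080 and 0.12. PSMG2 had -0.28 and -0.67 against 0.070 and 0.028. After scaling by median ratios, PSMD5 and PSMG2 in Panc-1 RARγi-1 were at -0.02 and -0.03, and PSMD13 and PSMD4 in PK-1 RARγi-1 were at -0.07 and -0.0076, so that these 4 genes no longer had opposite directions in the lines.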

How the results depend on the processing

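The median log2 fold changes of the subunits and of each subunit group, and the ratios of immunoproteasome to constitutive subunits, moved by less than the spread between the treated libraries under every alternative that was run, and no called gene turned its direction. Some counts moved. The number of subunits more than 2-fold higher in PK-1 RARγi-2 went from 0 to 1 without a pseudocount, with a pseudocount of 0.1 and after scaling by median ratios. The number more than 1.5-fold higher in Panc-1 RARγi-1 went from 1 to 0 after scaling by median ratios. In PK-1 RARγi-2, where PSMA2 lay at the limit, the number more than 1.5-fold lower went from 9 to 10 without a pseudocount and with 0.1. The alternative minimum levels and the summed entries moved no count by more than 1.5-fold. No paired analysis was possible because each condition is 1 library and no test was run, and for the same reason no library could be left out. The planned comparison of protein sequences was not run. Depth is unknown, so that the precision of a low level such as that of PSMG4 cannot be given.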
